A study of Mus musculus with 6 samples.

Results

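The 9 genes described here encode Janus kinases (Jak1, Jak2 and Tyk2), signal transducers and activators of transcription (Stat2, Stat3, Stat4 and Stat6) and suppressors of cytokine signaling (Socs1 and Socs3). They were chosen by name, and all 9 were found among the 22939 genes counted and among the 13463 that passed the filter on low counts. Mouse regulatory T (Treg) cells were profiled by RNA-seq in 6 libraries, 3 without sorafenib (ctrl-Treg) and 3 differentiated in its presence (Sora-Treg). Sorafenib (Sora) is an inhibitor of several protein kinases that is used in liver cancer. In both groups, naive CD4+ T cells came from C57BL/6J mice that carry a GFP knock-in at Foxp3 and were stimulated with plate-bound anti-CD3 and anti-CD28 antibodies and polarized with TGF-β1 and with antibodies that block IFN-γ and IL-4. Sora was added from the start of the culture, and GFP-positive cells were sorted for sequencing. The Sora concentration and the culture day of the sequenced cells, the age of the mice and whether animals were pooled are not given in the sources used here, and nothing shows whether the 3 libraries of a group came from separate cultures. The p-values therefore measure only the spread between these libraries, which may be technical.

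Cytokine receptors of this class have no kinase activity of their own. They carry Janus kinases, which phosphorylate the receptor and then the STAT proteins, and phosphorylated STATs pair, enter the nucleus and activate genes. SOCS genes are among those they activate, and SOCS proteins in turn block the kinases or the receptor, which closes a feedback loop. In T cells, STAT3 serves IL-6, IL-10, IL-21 and IL-27, STAT4 serves IL-12, STAT6 serves IL-4, and STAT2 acts with IRF9 in the complex ISGF3 that answers type I interferon. RNA-seq measures the transcripts of these genes, and their phosphorylation was not measured here. In bulk RNA, a change in the share of cells that express a gene and a change in RNA per cell cannot be told apart.

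Total counts ranged from 30727686 to 37717324 per library, and the 9 genes had between 1864 counts (Socs1, control replicate 3) and 35753 counts (Stat3, sorafenib replicate 3). Foxp3 had between 8058 and 10584 counts in every library, and the 8 CD4 T and Treg marker genes summed to between 4021 and 4089 CPM (counts relative to the scaled library total) in ctrl-Treg and between 6886 and 7005 CPM in Sora-Treg libraries. Most of that rise lay in Il2ra (mean 1934 to 3795 CPM) and Ctla4 (383 to 1108 CPM). Cd3e and Cd3d had log2 fold changes of 0.60 and 0.75. Those of Cd4, Cd5, Foxp3 and Ikzf2 were 0.061, 0.14, 0.074 and 0.021. Of 7 myeloid marker genes, all were detected, with sums of 24.9 to 93.5 CPM in ctrl-Treg and 20.8 to 42.9 CPM in Sora-Treg libraries. The highest of these sums were in control replicates 1 and 2. The 5 B cell markers summed to between 9.71 and 10.7 CPM in ctrl-Treg and between 6.09 and 7.68 CPM in Sora-Treg libraries. The 2 CD8 markers summed to between 13.2 and 15.1 CPM and between 12.6 and 13.8 CPM, and the 3 red cell markers to at most 0.157 CPM. CPM values here are scaled by TMM, a method that assumes that most genes do not change between libraries. A gene was called when its edgeR adjusted p was under 0.05, and it was called a differentially expressed gene (DEG) when its log2 fold change was also beyond 1 in either direction.

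Sequences before the start sites that the RefSeq promoter table lists show where the motifs of this pathway stand in these genes. A listed start site need not be the outermost 5′ end of the gene. STAT dimers bind the letters TTCNNNGAA, known as the gamma-activated site (GAS). STAT6 prefers a wider form, TTC and GAA with 4 bases between them, and ISGF3 binds the interferon-stimulated response element (ISRE), whose core was searched as GAAA, any 2 bases and GAAA again. All were searched on both strands. The search covered the 250 bases before each start site in RefSeq, in which all 9 genes had an entry (build GRCm38.p6, 1 promoter each and 2 for Stat4). Shown are Socs3 and Stat3, which rose most, and Socs1 and Stat2, which hold interferon elements, with motif matches in capitals, from 5′ to 3′.
Socs3, chr11:117969367-117969616, minus strand: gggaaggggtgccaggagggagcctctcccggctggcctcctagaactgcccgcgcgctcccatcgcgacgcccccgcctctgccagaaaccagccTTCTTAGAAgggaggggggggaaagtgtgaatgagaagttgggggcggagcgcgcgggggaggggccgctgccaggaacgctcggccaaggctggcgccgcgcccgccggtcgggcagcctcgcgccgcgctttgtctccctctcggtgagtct
Stat3, chr11:100939541-100939790, minus strand: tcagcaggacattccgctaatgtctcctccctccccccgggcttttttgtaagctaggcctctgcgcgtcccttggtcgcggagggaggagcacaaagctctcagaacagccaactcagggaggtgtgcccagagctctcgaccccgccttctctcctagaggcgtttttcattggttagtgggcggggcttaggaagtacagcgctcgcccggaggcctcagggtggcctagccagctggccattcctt
Socs1, chr16:10785537-10785786, minus strand: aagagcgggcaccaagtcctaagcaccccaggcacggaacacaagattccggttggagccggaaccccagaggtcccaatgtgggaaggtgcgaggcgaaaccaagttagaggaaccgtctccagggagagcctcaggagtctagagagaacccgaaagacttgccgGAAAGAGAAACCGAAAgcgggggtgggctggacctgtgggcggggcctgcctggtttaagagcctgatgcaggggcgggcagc
Stat2, chr10:128270248-128270497, plus strand: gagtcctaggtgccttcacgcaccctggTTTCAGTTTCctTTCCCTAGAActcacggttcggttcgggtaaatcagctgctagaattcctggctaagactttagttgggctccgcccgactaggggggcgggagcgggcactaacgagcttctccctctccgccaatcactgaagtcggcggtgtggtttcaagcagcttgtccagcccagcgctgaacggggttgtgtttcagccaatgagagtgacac

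The Socs3 window held a single GAS match, TTCTTAGAA, at bases -154 to -146 from the listed start site (position 117969366), and no window of the other 8 genes held one. This window lies wholly inside the Socs3 gene as RefSeq spans it, 720 to 969 bases from the gene's 5′ end at 117970336, so the match is upstream only of the listed start site. In the GENCODE basic set the Socs3 transcript starts at 117969186, 180 bases further downstream. The Socs1 and Stat2 windows end at the 5′ end of their genes, the nearest 54 bases of the Stat3 window lie inside its gene, and the second Stat4 start site lies 21134 bases inside. A GAS match was present in 7.02% of all 32851 windows. The Socs1 window held 2 overlapping ISRE cores, at bases -83 to -74 and -77 to -68. The Stat2 window held an ISRE core at bases -222 to -213 and, next to it, a STAT6-type match at bases -210 to -201. 1 of the 2 Stat4 windows held an ISRE core, so 3 of the 9 genes had one, against 3.46% of all genes with a window. An ISRE core was present in 2.98% and a STAT6-type match in 5.85% of all windows. None of the 3 motifs was found in the windows of Jak1, Jak2, Tyk2, Stat3 or Stat6, which says only that these letters are not in these windows. Gene positions given with each gene below are from the same build.

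Sora-Treg cells had more transcripts of Stat3 and of Socs3, its classical feedback inhibitor, while the other 7 genes differed by a log2 fold change of at most 0.29 in either direction. With TMM scaling 8 of the 9 genes were called, 7 higher and 1 lower, and none was a DEG with edgeR, DESeq2 or limma. Among all tested genes 59.6% were called, with 29.7% higher and 29.9% lower, and 11.3% were DEGs, with 6.3% higher and 4.97% lower. A call alone was thus common in this comparison, so the size of the change is given with each gene. The median log2 fold change of the 9 was 0.17, against -0.0035 over all tested genes. In TMM-scaled CPM the libraries of the groups did not overlap in 8 of the 9 genes, and in 63.7% of all tested genes. The direction of the Jak1 and Jak2 changes depended on the scaling, while for Stat2, Stat4 and Stat6 the call did but not the direction. With library size alone, which moved all genes by -0.12 on the log2 scale, 3 of the 9 were called higher and 2 lower, and over all genes 2862 were called higher and 5614 lower, against 3994 and 4028 with TMM scaling.

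**Figure D1:**
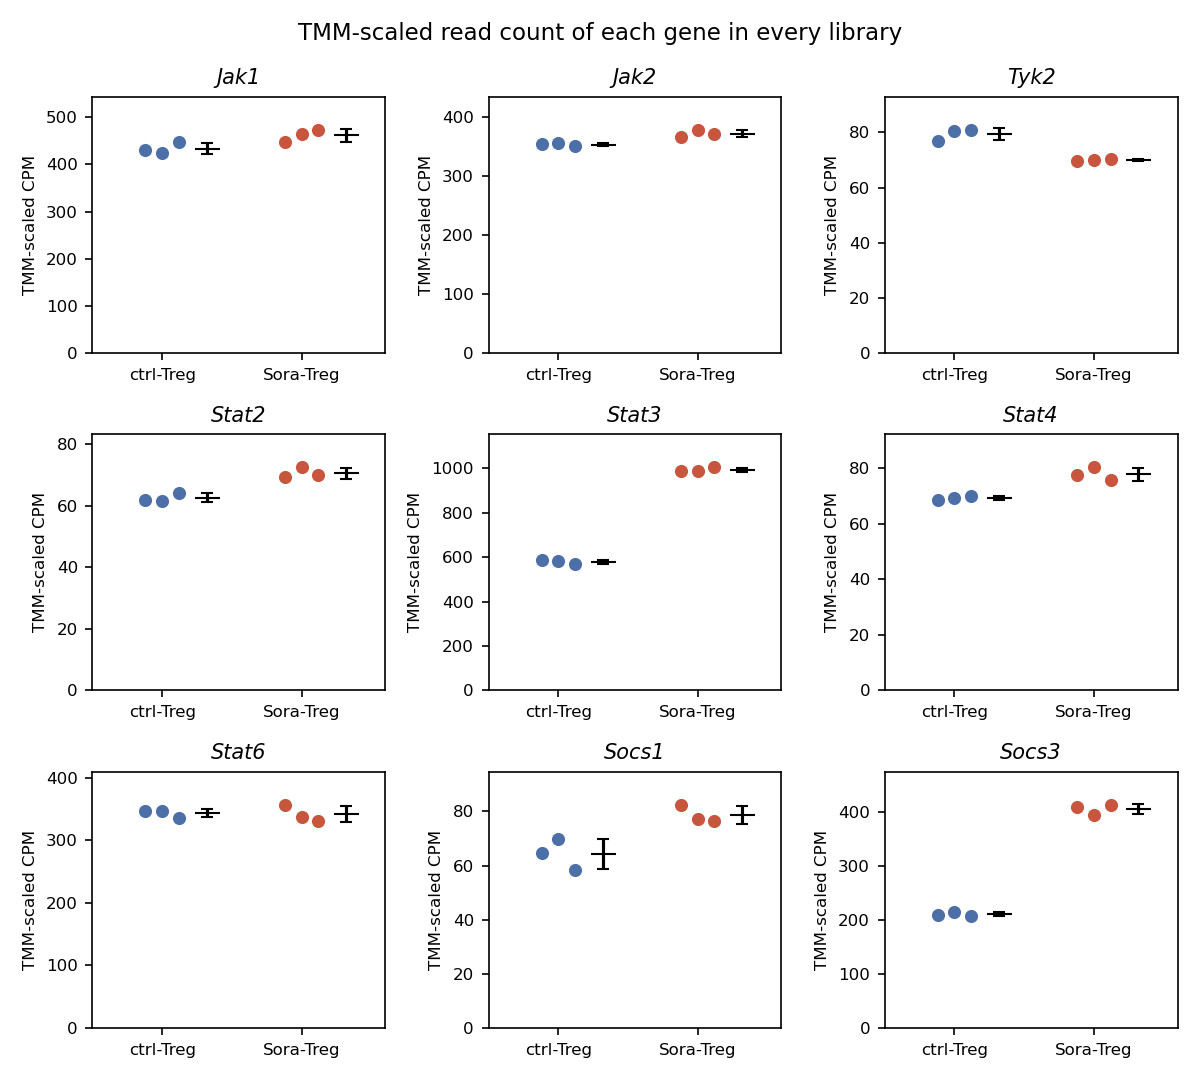
TMM-scaled CPM (vertical axes, from 0) of the 9 genes in the 3 ctrl-Treg (blue) and 3 Sora-Treg (red) libraries. Points are libraries, and black bars are the mean and SD. The groups lie far apart for Stat3 and Socs3, overlap for Stat6, and lie close to each other for the rest.

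Stat3 (chromosome 11, 100886806 to 100939594, minus strand) was the most abundant of the 9 per length. It was at 586, 583 and 568 CPM in control replicates and 988, 989.7 and 1004 CPM with Sora. Every Sora-Treg library was above every ctrl-Treg library, and the spread within each group was small beside the gap. Stat3 rose from 579 ± 9.72 to 994 ± 8.999 CPM (SD, n = 3), which is a log2 change of 0.78 ± 0.02 (SE, adjusted p = 8.60e-18 by edgeR). Among all tested genes, 8.17% were called higher with at least this log2 fold change. The rise stayed between 0.76 and 0.79 on the log2 scale when any library was left out. Its annotation shares 72 exonic bases with Stat5a in GENCODE, and Stat5a went the other way with a log2 fold change of -0.55 ± 0.03 (SE, adjusted p = 1.78e-13 by edgeR). The lncRNA Gm46295, which overlaps Stat3 in RefSeq, had at most 54 counts.

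The STAT3 feedback gene Socs3 (chromosome 11, 117966079 to 117970336, minus strand) encodes an inhibitor that binds the receptor chain gp130 and the Janus kinases. It was at 209, 215 and 208 CPM in control replicates and 409.8, 395 and 413 CPM with Sora. No library of one group came near the other group. Socs3 rose from 211 ± 4.21 to 406 ± 9.58 CPM (SD, n = 3), which is a log2 change of 0.95 ± 0.03 (SE, adjusted p = 6.08e-18 by edgeR). The 95% interval of this change, 0.89 to 1.01, reaches the fold limit for a DEG, while the estimate lies just under it. Genes called higher by at least this much made up 6.72% of all tested genes.

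Socs1 (chromosome 16, 10783808 to 10785536, minus strand), an inhibitor that acts on Janus kinases and is best known for restraining IFN-γ signaling, varied most between replicates. It was at 64.7, 69.7 and 58.4 CPM in control replicates and 82.4, 77.0 and 76.6 CPM with Sora. The groups did not overlap, and the lowest library was control replicate 3. The change from 64.3 ± 5.70 to 78.7 ± 3.24 CPM (SD, n = 3) gave a log2 fold change of 0.29 ± 0.05 (SE, adjusted p = 4.57e-05 by edgeR). Without control replicate 2 it was 0.35, and without control replicate 3 it was 0.23. Leaving out control replicates 1 and 2, the libraries with the most myeloid transcripts, left control replicate 3 as the lone control. Socs1 then had a log2 fold change of 0.43, Stat3 of 0.81 and Socs3 of 0.97. With a lone control these are effect sizes only, and for Socs1 that control was the lowest library.

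Stat2 (chromosome 10, 128270498 to 128292853, plus strand), the STAT of the type I interferon response, was at 61.8, 61.6 and 64.3 CPM in control replicates and 69.2, 72.4 and 69.9 CPM with Sora. Stat4 (chromosome 1, 51987106 to 52107189, plus strand), the STAT of IL-12, was at 68.7, 69.5 and 70.02 CPM in control replicates and 77.8, 80.4 and 75.7 CPM with Sora. For both genes the groups were close without overlapping. Stat2 and Stat4 had log2 fold changes of 0.17 ± 0.04 each (SE, adjusted p = 9.63e-04 and 9.15e-04 by edgeR). With library size alone these were 0.057 and 0.052 and no longer passed, so the calls rest on the scaling. Without control replicates 1 and 2, which leaves a lone control library, the values were 0.13 and 0.16.

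Stat6 (chromosome 10, 127642955 to 127660987, plus strand), the STAT of IL-4, was the only one of the 9 without a call. It was at 346, 347 and 336 CPM in control replicates and 356, 338 and 331 CPM with Sora. The groups overlapped, with sorafenib replicate 1 the highest and sorafenib replicate 3 the lowest. The log2 fold change was -0.0068 ± 0.03 (SE, adjusted p = 0.860 by edgeR), and its 95% interval ran from -0.07 to 0.06. With library size alone it was -0.12 and passed (edgeR adjusted p = 0.00122). Stat6 shares 40 exonic bases with Nab2, which had a log2 fold change of 0.42 (edgeR adjusted p = 2.49e-09).

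The Janus kinase genes moved little. Jak1 (chromosome 4, 101151974 to 101265282, minus strand), which serves the gp130, common gamma chain and interferon receptors, was at 430.3, 423 and 447 CPM in control replicates and 447, 465 and 473 CPM with Sora. Control replicate 3 and sorafenib replicate 1 were nearly level, at 446.97 and 447.03 CPM. The log2 fold change of Jak1 was 0.09 ± 0.03 (SE, adjusted p = 0.00929 by edgeR). Jak2 (chromosome 19, 29251803 to 29313095, plus strand), the kinase of the IL-12 receptor beta 2 chain and the IFN-γ receptor, was at 354, 356 and 351 CPM in control replicates and 366, 379 and 372 CPM with Sora. Those values did not overlap, and its log2 fold change was 0.07 ± 0.03 (SE, adjusted p = 0.0199 by edgeR). With library size alone both turned negative, to -0.024 for Jak1 and -0.042 for Jak2, neither of them called. Jak1 lost its call without sorafenib replicate 3 (0.074), and Jak2 without control replicate 3 (0.068) or sorafenib replicate 3 (0.075).

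Tyk2 (chromosome 9, 21104068 to 21131393, minus strand), the kinase that pairs with JAK1 at the type I interferon receptor and with JAK2 at the IL-12 receptor, was the only one of the 9 called lower. It was at 76.9, 80.6 and 80.9 CPM in control replicates and 69.7, 70.05 and 70.4 CPM with Sora. All Sora-Treg libraries were below all ctrl-Treg libraries. Tyk2 fell by 0.18 ± 0.04 on the log2 scale (SE, adjusted p = 4.01e-04 by edgeR). It fell by 0.17 to 0.30 under 17 other settings of scaling, filter, tool and libraries, and stayed past the threshold in each. Stat3 and Socs3 likewise kept direction and call in all 17, with ranges of 0.66 to 0.79 and 0.82 to 0.97.

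**Figure D2:**
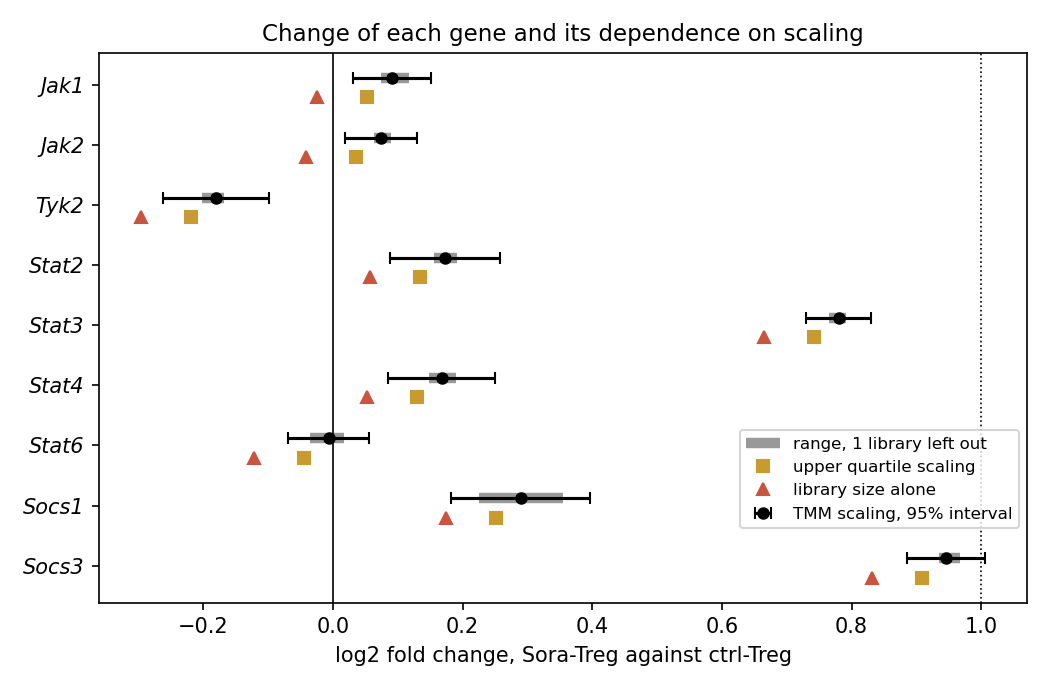
Log2 fold change of Sora-Treg against ctrl-Treg cells (horizontal axis) for the 9 genes. Black points are the TMM-scaled estimates with 95% intervals, grey bars the range when 1 library was left out, gold squares upper quartile scaling and red triangles library size alone. The dotted line marks the fold limit of a DEG. The red triangles of Jak1 and Jak2 lie below 0, while those of Stat3 (0.66) and Socs3 (0.83) stay far above it.

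The FPKM values, which are per length, put the 9 genes on a scale on which levels can be compared between genes. These FPKM values are scaled by library totals and not by TMM. In FPKM the groups of Jak1, Stat2 and Stat4 overlapped. For Jak2 and Stat6, as for Tyk2, every Sora-Treg library was below every ctrl-Treg library. In ctrl-Treg cells the order was Stat3 (131 ± 2.40 FPKM), Stat6 (93.8 ± 1.76), Socs3 (80.2 ± 1.45), Jak1 (74.6 ± 2.12), Socs1 (49.9 ± 4.38), Jak2 (33.6 ± 0.213), Stat4 (22.5 ± 0.169), Tyk2 (15.8 ± 0.399) and Stat2 (14.5 ± 0.341). No pair of neighbours in that order overlapped over 3 libraries. In Sora-Treg cells Stat3 was at 207 ± 1.78 FPKM and Socs3 at 143 ± 3.52 FPKM, ahead of Stat6 at 86.2 ± 3.44 FPKM. Tyk2, at 12.8 ± 0.0515 FPKM, had become the lowest, below Stat2 at 15.1 ± 0.344 FPKM. Neighbours did not overlap there either. The mean FPKM of Stat3 in ctrl-Treg cells was above that of 97.4% of all tested genes, and that of Stat2, the lowest of the 9, was above 69.5%.

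Ratios between genes of the same library do not depend on the scaling between libraries. Stat3 was 1.40 times Stat6 per length in ctrl-Treg cells and 2.41 times Stat6 in Sora-Treg cells, a difference of 0.79 in the log2 ratio. Against Stat4 the ratio of Stat3 went from 5.82 to 8.89, and against Stat2 from 9.002 to 13.7. Socs1 went from 0.621 to 0.395 times Socs3, a difference of -0.65 in the log2 ratio. Stat3 relative to Socs3 fell slightly, from 1.63 to 1.45, since Socs3 rose more. Relative to Tyk2, Jak1 went from 4.73 to 5.71 times and Jak2 from 2.13 to 2.54 times, and Stat4 relative to Stat6 from 0.240 to 0.271 times. In each of these 8 ratios the 3 libraries of one group lay wholly on one side of the other group. The ratio of Jak1 to Jak2 was 2.22 without and 2.24 with Sora, and there the groups overlapped. The two-sided exact permutation test gave 0.1 for the 8 ratios, the smallest p that 3 libraries against 3 allow, and 0.6 for Jak1 to Jak2 (0.113 and 0.6 after Benjamini-Hochberg adjustment over 9 ratios), so no ratio could pass 0.05.

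**Figure D3:**
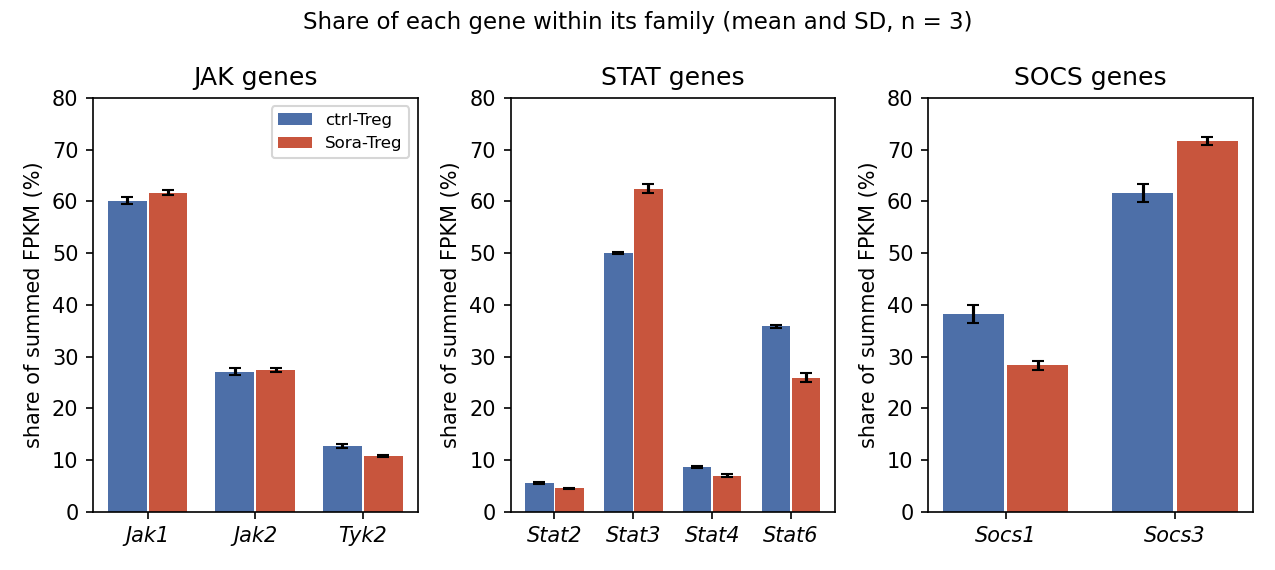
Share of each gene in the summed FPKM of its family among the 9 genes (vertical axis, %), with bars for the mean and error bars for the SD of 3 libraries. In the STAT panel Stat3 went from 50.0% to 62.5% and Stat6 from 35.8% to 26.0%, in the SOCS panel Socs3 went from 61.7% to 71.7%, and the JAK panel changed least.

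Within the 4 STAT genes, Stat3 held 50.0% ± 0.227 of the summed FPKM in control and 62.5% ± 0.839 with Sora (SD, n = 3). The share of Stat6 went from 35.8% ± 0.201 to 26.0% ± 0.848, although its CPM was not called as changed. Among the 3 kinases Jak1 held 60.2% ± 0.740 and 61.7% ± 0.498, while Tyk2 went from 12.7% ± 0.316 to 10.8% ± 0.189. Summed over the 3 kinases, FPKM ranged from 122 to 126 in ctrl-Treg and from 116 to 121 in Sora-Treg libraries. Over the 4 STAT genes the sums were 258 to 265 and 331 to 335, and over the 2 SOCS genes 124 to 136 and 194 to 204. FPKM is scaled by library totals, and the direction of the kinase sum depends on this. In TMM-scaled CPM the mean of Jak1 went from 433 to 462, of Jak2 from 354 to 372 and of Tyk2 from 79.5 to 70.1.

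For the 3 genes with the largest changes, the tested genes with the most similar profile over the 6 libraries were sought by the root mean square (RMS) difference of centred log2 CPM. The nearest to Socs3 were Nlgn2, Galnt6 and P4hb, with RMS differences of 0.0144, 0.0145 and 0.0213. The nearest to Stat3 were Vegfa, which encodes a ligand of a receptor that Sora inhibits, Cdkn2d and Dennd5a, with RMS differences of 0.0179, 0.0202 and 0.0222. Zfpl1, Zbtb39 and Ulk3 were nearest to Socs1, at 0.0144, 0.0191 and 0.0293. With 2 groups of 3 libraries, such likeness mostly says that the fold changes are of like size.

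The other genes of the JAK, STAT and SOCS families moved in both directions. Of 10 such genes tested, 5 were called higher, 4 lower and none was a DEG, with a median log2 fold change of 0.11 (-0.0033 with library size alone). Among all tested genes 29.7% were called higher and 29.9% lower. Jak3, the kinase of the common gamma chain, was at 498, 509.5 and 495 CPM in control replicates and 799, 779 and 799.8 CPM with Sora. Its groups lay far apart, and its log2 fold change was 0.66 ± 0.03 (SE, adjusted p = 3.00e-16 by edgeR), larger than that of Jak1, Jak2 or Tyk2. Stat5b was higher by 0.23 ± 0.03 while Stat5a was lower, and the STAT5 feedback genes Cish and Socs2 were higher by 0.42 ± 0.03 and 0.49 ± 0.03. Socs6 was called higher, Socs4 and Socs7 were called lower, and Socs5 had a log2 fold change of -0.0039 ± 0.07 (SE, adjusted p = 0.968 by edgeR).

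Upstream of STAT3 and STAT4, the receptor genes split. Of 7 tested genes of the gp130 and IL-12 receptor families, 4 were called higher and 2 lower, with a median log2 fold change of 0.24. The shares over all tested genes were 29.7% higher and 29.9% lower. The IL-6 receptor gene Il6ra and Il6st, which encodes gp130, were lower by -0.48 ± 0.05 and -0.29 ± 0.04 (SE, adjusted p = 3.97e-09 and 2.09e-07 by edgeR). The IL-27 receptor gene Il27ra was higher by 0.24 ± 0.04 (SE, adjusted p = 9.09e-06 by edgeR). Il12rb2, which encodes the signaling chain of the IL-12 receptor that binds JAK2, was at 22.3, 22.9 and 22.3 CPM in control replicates and 102, 106 and 111 CPM with Sora. All Sora-Treg libraries were several times higher, with a log2 fold change of 2.24 ± 0.05 (SE, adjusted p = 6.28e-21 by edgeR). Its partner Il12rb1, whose product binds TYK2, was higher by 0.78 ± 0.03 (SE, adjusted p = 5.33e-15 by edgeR).

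Receptor genes of the common gamma chain and IL-4 families were called higher in 8 of 10 and lower in 1, with a median log2 fold change of 0.85. For this list and the next, 29.7% of all tested genes were called higher and 29.9% lower. Il4ra, the IL-4 receptor chain that recruits STAT6, was at 264, 265 and 262 CPM in control replicates and 546, 553 and 563 CPM with Sora, a log2 fold change of 1.07 ± 0.03 (SE, adjusted p = 1.18e-19 by edgeR), while Stat6 itself was not called. The IL-2 receptor genes Il2ra and Il2rb and the IL-7 receptor gene Il7r were higher by 0.97 ± 0.02, 0.88 ± 0.02 and 1.30 ± 0.05, and Crlf2 by 0.82 ± 0.06. Il9r, named after its value was seen, was the 1 called lower (-2.12 ± 0.24). Of 7 tested interferon and IL-10 family receptor genes, 6 were called higher and none had a negative log2 fold change, with a median of 0.36. Ifngr1, the ligand-binding chain of the IFN-γ receptor, was at 127, 137 and 130.3 CPM in control replicates and 363, 360.5 and 361 CPM with Sora, a log2 fold change of 1.46 ± 0.03 (SE, adjusted p = 1.29e-20 by edgeR). Il10ra, the IL-10 receptor chain that recruits STAT3, was higher by 0.77 ± 0.03, Ifngr2 by 0.36 ± 0.05, Il10rb by 0.23 ± 0.04 and Ifnlr1 by 1.31 ± 0.26 on at most 87 counts. The 1 gene without a call was the type I interferon receptor gene Ifnar2 (0.0062 ± 0.05).

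Among cytokine genes whose products act through these STATs, 11 of the 16 analysed here passed the filter, of which 6 were called higher and 3 lower, with a median log2 fold change of 0.42. Over all tested genes 29.7% were called higher and 29.9% lower. Il21, a STAT3 cytokine, was at 5.05, 5.88 and 4.85 CPM in control replicates and 25.2, 25.6 and 27.6 CPM with Sora, a log2 fold change of 2.31 ± 0.09 (SE, adjusted p = 5.91e-16 by edgeR). Il10, which the study named on these samples, was higher by 3.07 ± 0.10, and Lif and Osm, which signal through gp130, by 1.11 ± 0.03 and 0.42 ± 0.04. Il23a, a subunit of IL-23, was lower (-2.94 ± 0.14). Il6 was below the filter, with 6 to 10 counts in ctrl-Treg and 1 to 6 counts in Sora-Treg libraries, and Ifnb1 had at most 1 count in any library. Among 24 other regulators, such as phosphatases, SUMO ligases and coactivators, 10 were called higher and 5 lower, with a median of 0.02 (-0.10 with library size alone). Those with the smallest adjusted p were the adaptor gene Sh2b1 (0.53 ± 0.03), the coactivator gene Ep300 (0.50 ± 0.03), the phosphatase genes Ptprc (0.37 ± 0.03) and Ptpn2 (0.40 ± 0.04), and Elob (0.32 ± 0.04), a subunit of the ligase that SOCS proteins recruit. With library size alone, 12 of these 24 were called lower, so their balance rests on the scaling.

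**Figure D4:**
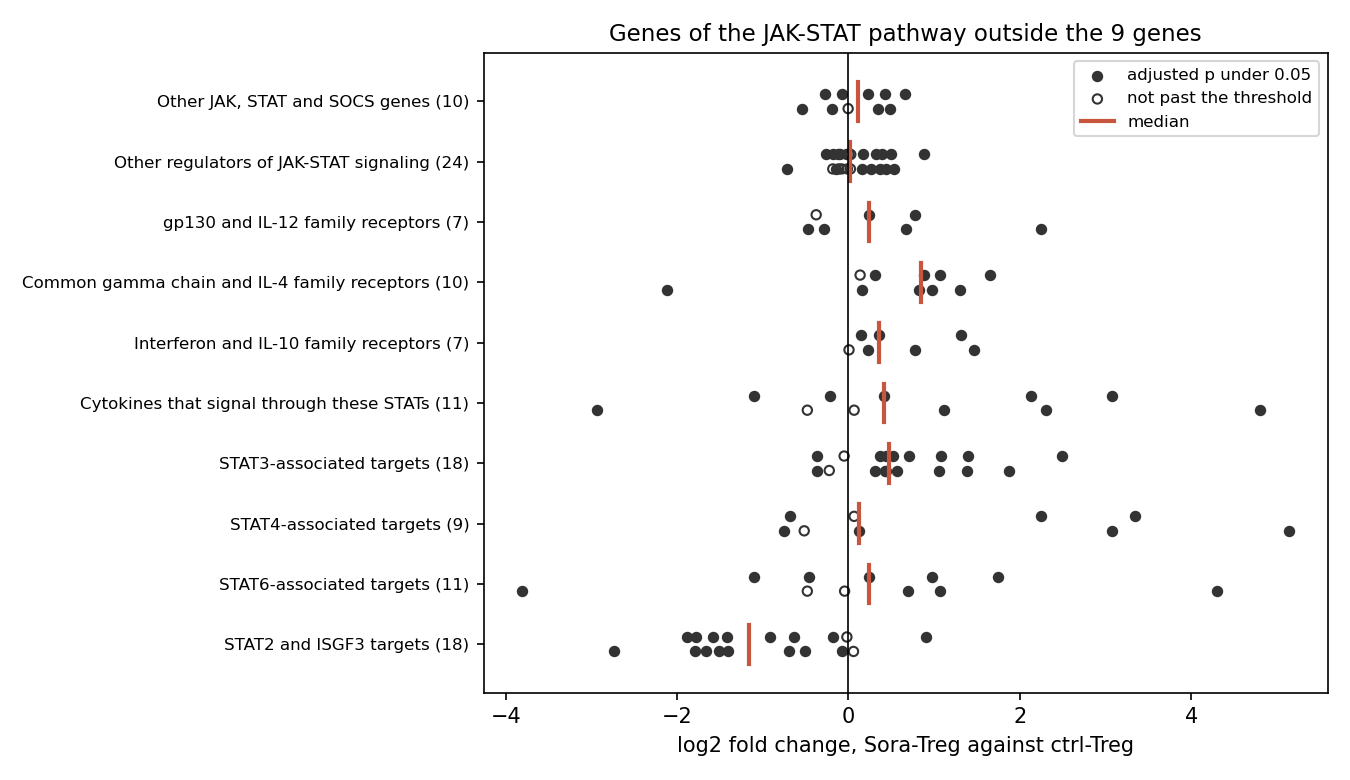
Log2 fold change (horizontal axis) of the tested genes in 10 lists of JAK-STAT pathway genes outside the 9, with the number tested in brackets. Filled points passed an edgeR adjusted p of 0.05, open points did not, and red bars mark medians. The median lies at -1.16 for STAT2 and ISGF3 targets and above 0 for the other lists, of which the other JAK, STAT and SOCS genes (-0.0033) and the other regulators (-0.10) fall below 0 with library size alone.

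Genes associated with the 4 STATs were then read as 4 lists, whose members other factors also control. Some of these genes also belong to the lists above, among them Il12rb2, Il10, Ifng, Il4ra, Il13 and Irf9. The counts of the lists are thus not independent. Of 18 tested genes of the STAT3 list, 14 were called higher and 2 lower, with a median log2 fold change of 0.48, and 6 were DEGs. Among all tested genes 29.7% were called higher and 29.9% lower, and 11.3% were DEGs. Hif1a, a regulator of glycolysis, was at 258, 263 and 269 CPM in control replicates and 671, 722 and 675 CPM with Sora, a log2 fold change of 1.39 ± 0.03 (SE, adjusted p = 1.79e-20 by edgeR). The transcription factor gene Maf was higher by 1.87 ± 0.06, Tnfrsf8, which encodes CD30, by 2.49 ± 0.04, the kinase gene Pim2 by 1.05 ± 0.03 and the survival gene Mcl1 by 0.57 ± 0.03. Batf, a transcription factor gene named after its value was seen, was among the 2 called lower (-0.37 ± 0.05). None of the list's windows held a GAS match apart from that of Bcl6, 1 of 16 genes with a window, against 8.13% of all genes with a window.

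Of 9 tested genes of the STAT4 list, 5 were called higher and 2 lower, with a median log2 fold change of 0.12 (0.0029 with library size alone). Over all tested genes 29.7% were called higher and 29.9% lower, with 6.3% DEGs higher and 4.97% DEGs lower. Gzmb, which encodes a cytotoxic granule protease, was higher by 5.14 ± 0.04 and Il10 by 3.07 ± 0.10, of which the study had named Il10 on these samples, so that gene is no independent evidence of direction. Il18r1, which encodes a chain of the IL-18 receptor, was lower (-0.68 ± 0.05). Ifng had 45 to 64 counts in any library and a log2 fold change of 0.07 ± 0.27 (SE, adjusted p = 0.850 by edgeR). GAS matches were found for Ifng, Il12rb2 and Il18r1, 3 of 8 genes with a window, against 8.13% of all genes with a window. Of 11 tested genes of the STAT6 list, 6 were called higher and 3 lower, with a median of 0.24, and 3 were DEGs higher and 2 DEGs lower. Il24, a cytokine gene, had the largest rise of that list, 4.30 ± 0.05, followed by the transcription factor gene Nfil3 with 1.74 ± 0.04. The chemokine receptor gene Ccr4 was higher by 0.97 ± 0.03 and the phosphatase gene Dusp4 by 0.69 ± 0.03. The 3 called lower, named after their values were seen, were the Th2 cytokine genes Il5 (-3.81 ± 0.33, on 108 to 143 counts in ctrl-Treg and 5 to 13 counts in Sora-Treg libraries) and Il13 (-1.11 ± 0.41) and the chemokine receptor gene Ccr8 (-0.46 ± 0.04). Il13 had just 28 to 47 counts in ctrl-Treg and 12 to 23 counts in Sora-Treg libraries, and its groups overlapped in CPM. The Th2 regulator gene Gata3 had a log2 fold change of -0.045 ± 0.04 (SE, adjusted p = 0.375 by edgeR).

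The STAT2 and ISGF3 list went the other way from Stat2. Of 18 tested genes, 15 were called lower and 1 higher, with a median log2 fold change of -1.16, and 9 were DEGs lower. Among all tested genes 29.9% were called lower and 29.7% higher, and 4.97% were DEGs lower. Ifih1, a sensor of double-stranded RNA, was at 19.5, 19.9 and 18.3 CPM in control replicates and 6.82, 7.40 and 7.33 CPM with Sora, a log2 fold change of -1.42 ± 0.09 (SE, adjusted p = 2.13e-12 by edgeR). Oasl2 was at 3.28, 3.05 and 1.85 CPM in control replicates and 0.362, 0.408 and 0.449 CPM with Sora, and was lower by -2.73 ± 0.31. Bst2 and Ifit2, both interferon-induced antiviral genes, were lower by -0.51 ± 0.05 and -0.69 ± 0.09. The 1 called higher was Dhx58 (0.91 ± 0.06), whose product regulates RNA sensing. Irf9, whose product joins STAT2 in ISGF3, was called lower (-0.18 ± 0.04). An ISRE core was found for 7 of 13 genes of this list with a window, against 3.46% of all genes with a window. Control replicates 1 and 2, which carried the most myeloid transcripts, also had the higher values of Oasl2 among the controls. In relative terms the controls differed less for Ifih1, Bst2 and Ifit2. Ifit2 was at 15.3, 14.9 and 14.6 CPM in control replicates and Bst2 at 61.0, 63.6 and 58.1 CPM. Without those libraries a lone control library was left, which cannot show whether the calls of this list hold. With limma on filtered FPKM values, 11 genes of the list were tested, of which 8 were called lower and 1 higher, and without that filter 15 were called lower. The part of myeloid cells in this result was not tested.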

How the data were processed

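RNA-seq of 3 ctrl-Treg and 3 Sora-Treg libraries was analysed, grouped by sample title. Raw counts and FPKM values for 22939 gene symbols were deposited by the authors. The labels' processing notes name fastp, HISAT2, HTSeq, R 3.2.0, DESeq2 and GRCm39, whereas the methods of the study name Bowtie2 and GRCm38. The annotation release and the use of strand are not given in the sources used here, so reads of overlapping genes could have been shared. The FPKM values are the counts rescaled by gene length and library total (largest relative difference 1.64e-06) and add no separate measurement. A floor of 3 counts was 0.0762 to 0.0989 TMM-scaled CPM, which covers counting error only.

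Counts were fitted with edgeR 4.0.16 (quasi-likelihood test, TMM scaling, filterByExpr, no covariate) in R 4.3.3, with Benjamini-Hochberg adjustment over 13463 genes and a biological coefficient of variation of 4.29%. TMM factors were 1.04 in each ctrl-Treg library and 0.959 to 0.963 in Sora-Treg libraries. Within groups, library pairs differed by more than sampling noise (chi-square per degree of freedom 3.36 to 5.91). SEs are those the F statistic implies. Alternatives used other scalings and filters, DESeq2 1.42.0, robust fitting, the replicate block, each library left out, and limma 3.58.1 on log2(FPKM + 1) or log2(FPKM + 0.1). Leaving out control replicates 1 and 2 was chosen after seeing the data. Scripts were tested on simulated data. The 9 genes and all lists were chosen with earlier results of these data known. Besides the 9 genes and the related JAK, STAT and SOCS genes, at most 5 genes per list were named, those called with the smallest adjusted p. Others were chosen after their values were seen. Some genes that this rule names are not reported here. RefSeq (GRCm38.p6), which held 97.5% of the symbols, gave coordinates and upstream sequences.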

Additional observations from a re-analysis of the deposited data

How the results depend on the processing

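Under 17 other settings of scaling, filter, tool and libraries, Stat3, Socs3 and Tyk2 kept direction and call in all, and Socs1 in all but limma on unfiltered log2(FPKM + 1) (0.1764). With upper quartile scaling Jak1 and Jak2 had log2 fold changes of 0.0532 and 0.036, and when genes needed just 1 count in any sample Jak2 had 0.0592, none of them past the threshold. With library size alone Jak1 and Jak2 turned to -0.0244 and -0.0415, Stat2 and Stat4 were not called at 0.0574 and 0.0522, and Stat6 was called at -0.1221. On log2(FPKM + 1), with or without the filter, these values were -0.0243, -0.0403, 0.0533, 0.0499 and -0.1208, and on log2(FPKM + 0.1) they were -0.0246, -0.0414, 0.0565, 0.0519 and -0.122. FPKM is scaled by library totals, which by construction moves all genes the same way as library size alone. Of the 9 genes, 3 were then called higher and 2 lower, and on unfiltered log2(FPKM + 1) 2 higher and 2 lower. Over all genes, limma on log2(FPKM + 1) called 2357 higher and 4876 lower, with 274 DEGs higher and 189 lower. A pseudocount of 0.1 gave 2350 and 4867, with 373 and 371 DEGs, and no filter gave 2577 and 4973, with 274 and 185 DEGs. With a library left out, Jak1 ranged from 0.0744 to 0.1167, Jak2 from 0.0639 to 0.0893, Stat6 from -0.0347 to 0.0169 and the log2 ratio of Jak1 to Jak2 from -0.0045 to 0.0437. Without control replicates 1 and 2, where the lone control library was assumed to vary like the others, 3 of the 9 genes were called higher, and Jak1, Jak2, Stat2, Stat4 and Stat6 had 0.0475, 0.0841, 0.134, 0.1557 and 0.0245, none called. The cause of changes other than those of scaling was not tested. The numbers shared between groups did not pair the libraries, with correlations of -0.0438, 0.0591 and 0.0299 between same-numbered libraries. With the replicate block, 4057 genes were called higher and 4064 lower, 850 and 673 of them DEGs, 7 of the 9 genes were called higher and 1 lower, and no call among the 9 changed.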
